A study of Homo sapiens with 9 samples.

Results

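Regions of the genome that carried p300 peaks only after the drug, in at least 2 of the 3 drug-treated libraries, were described here. p300 is a histone acetyltransferase and transcriptional coactivator. It has no sequence-specific DNA binding of its own, is brought to enhancers and promoters by transcription factors, and acetylates histones and other proteins there, so that its binding is widely used to map active regulatory elements. PC3 is an established line from a bone metastasis of a human prostate carcinoma. MnTE-2-PyP, called T2E in the labels, is a manganese porphyrin that scavenges superoxide and other reactive species, and transcription factors with redox-sensitive cysteines are among the proteins it is known to influence.

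The untreated group was PC3 cells given no drug (2 p300 libraries), and the treated group was PC3 cells given 30 µM MnTE-2-PyP (the labels write µm) for 24 h (3 p300 libraries). Both groups received 20 Gy of radiation and were fixed 1 h later, so unirradiated cells are no part of the design. The p300 libraries of each group are described as biological replicates of 1 cell line. Each library came with 1 list of peaks on hg19, with a position and a score per peak. The lists hold no read counts, so the depth behind every value is unknown, and the identity of the cells could not be checked against marker genes.

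The members were chosen by the peak calls themselves. Merging the peaks of the 5 lists wherever they shared at least 1 bp gave 16701 regions, and a region was kept where 2 or 3 treated lists and no untreated list had a peak. This gave 489 regions, 2.93% of all (95% Wilson interval 2.68 to 3.19%, counting error only). They covered 231.4 kb in all and had 207 to 1695 bp each. Because the rule used the calls of both groups, counts, widths and scores of the members are a description, and no test was run on them. A region without an untreated peak is one where no peak was called, which at an unknown depth is not the same as no binding.

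Treated lists 1 and 2 carried most of the set. Treated list 2 held a peak in 464 of the 489 regions (94.9%), treated list 1 had one in 440, and treated list 3 in 114 (23.3%). By combination, 375 regions (76.7%) were in treated lists 1 and 2 alone, 49 in lists 2 and 3, 25 in lists 1 and 3, and 40 (8.18%) in all 3. These lists differed in length, with 4922, 10059 and 528 peaks, and the members made up 9.10%, 4.62% and 23.3% of the regions of treated lists 1, 2 and 3. A set defined by recurrence therefore drew least on the shortest list in number, but took the highest share of it.

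The names of the peaks carry an identifier whose meaning the labels do not give. Part of it is shared by treated list 1 and untreated list 1, and by treated list 3 and untreated list 2. Lists that share it are called a pair here. Within the first pair, 4170 of the 4837 regions of treated list 1 (86.2%) were absent from untreated list 1, and 440 of these (10.6%) were members. Within the second pair, 306 of the 490 regions of treated list 3 (62.4%) were absent from untreated list 2, and 114 (37.3%) were members. In the reverse direction, 70.3% of the regions of untreated list 1 were absent from treated list 1 and 90.9% of those of untreated list 2 from treated list 3. Absence from the partner list was thus common in both directions, more so in the treated list of the first pair and in the untreated list of the second. In each pair this was the longer list, with 4837 against 2249 regions in the first and 2022 against 490 in the second. Treated list 2 has an identifier of its own and no untreated partner.

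The same rule was put to the other 9 choices of 3 of the 5 lists, to set the 489 regions beside sets that do not follow treatment. Untreated list 1 with treated lists 1 and 2 gave 857 regions (5.13% of all), and untreated list 2 with treated lists 1 and 2 gave 665 (3.98%). The other 7 choices gave fewer than the treated lists. Both untreated lists with treated list 2 gave 354 (2.12%), with treated list 1 288 (1.72%), and with treated list 3 42 (0.251%). Untreated list 1 with treated list 3 gave 264 (1.58%) together with treated list 2 and 206 (1.23%) together with treated list 1. Untreated list 2 with treated list 3 gave 201 (1.20%) together with treated list 2 and 108 (0.647%) together with treated list 1. The 3 choices with most regions were those that hold treated lists 1 and 2 together, and the same 375 regions of that pair count in each of them. Leaving these 375 aside, 114 regions were left for the treated lists, against 482 and 290 when untreated list 1 or 2 stood in for treated list 3.

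**Figure D1:**
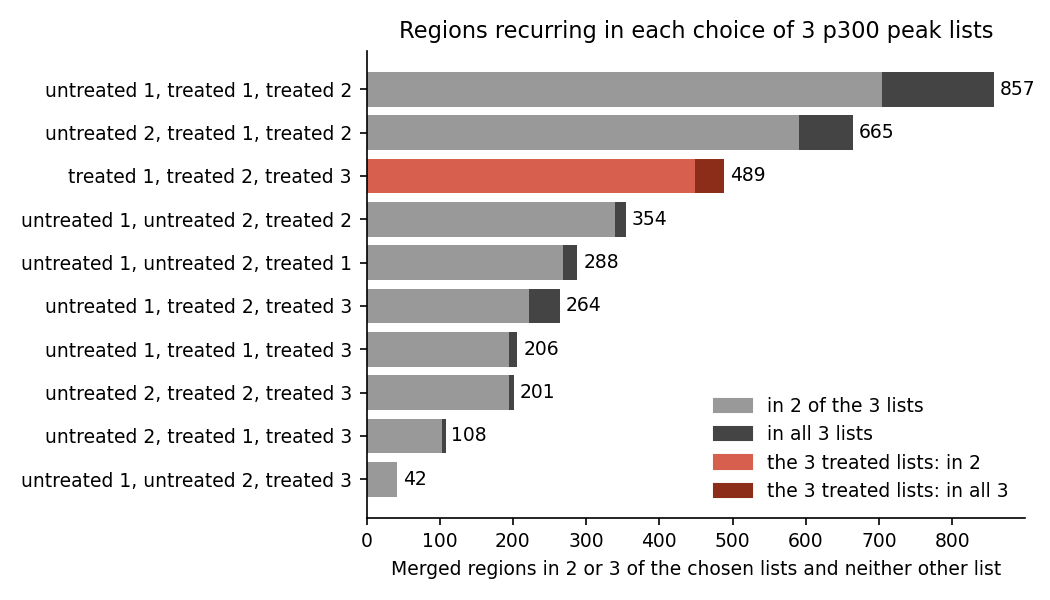
Number of merged regions (horizontal axis) found in 2 or 3 of the chosen lists and in neither other list, for each of the 10 choices of 3 lists (vertical axis), with the part in all 3 chosen lists in the darker shade. The 3 treated lists (red) gave 489 regions, below the 857 and 665 of the choices in which an untreated list took the place of treated list 3.

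Recurrence was also read as a share, because the lists differed in length. Of the 1120 regions found in 2 or 3 treated lists, 43.7% had no untreated peak. The corresponding share was 61.3% for untreated list 1 with treated lists 1 and 2, 53.5% for untreated list 2 with treated lists 1 and 2, and 8.73% to 35.8% for the other 7 choices. By this measure too, 2 of the 9 other choices lay above the treated lists. How far this share depended on list length was not tested, and it was not computed at equal list lengths. Both of these choices put treated list 3, the shortest at 528 peaks, among the lists that must have no peak. They held 17294 and 17020 peaks, against 15509 in the treated lists. With the 528 highest-scoring peaks of every list, 1 other choice gave more regions than the treated lists. For regions in all 3 chosen lists, the count of 40 was exceeded by 3 of the 9 others, at 153, 74 and 42.

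Peaks of the members ranked in the middle of treated lists 1 and 2 and lower in treated list 3. A percentile of 100 would stand for the highest score of a list. The median percentile of the member peaks was 58.7, 64.6 and 38.1 in treated lists 1, 2 and 3, or 53.8 ± 13.9 over the lists (SD, n = 3). The scores themselves, whose scale is not named, ran from 3.04 to 32.8 with a median of 8.11 in treated list 1, from 2.09 to 41.7 with a median of 5.93 in treated list 2, and from 2.18 to 58.0 with a median of 6.13 in treated list 3. Every list thus placed members from near its lowest score to high ranks.

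In each of the 3 treated lists, regions of that list alone had lower median percentiles than the members, at 43.7, 47.0 and 29.1. Recurring regions that also had an untreated peak, 631 in number, had higher ones, at 91.0, 95.6 and 63.5. Regions of 1 treated list that were shared with untreated lists instead of treated ones reached 58.7 and 59.4 in treated lists 1 and 2, close to the 58.7 and 64.6 of the members, and 70.5 in treated list 3, where they numbered 11. The order between the members and both other groups of treated regions was the same in 3 of 3 lists, but the rule itself separates these groups, so it was not tested.

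**Figure D2:**
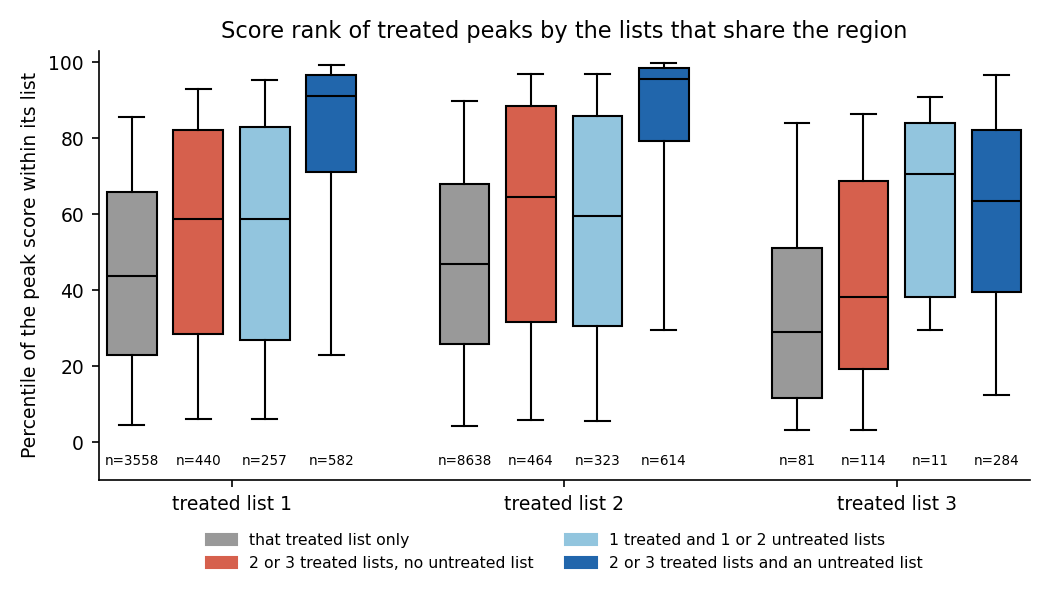
Rank of the peak score as a percentile of its list (vertical axis) for each treated list, by the lists that share the region. Boxes span the quartiles with the median as a line, whiskers the 5th to 95th percentiles, and n is the number of regions. Members (red) had medians of 58.7, 64.6 and 38.1, between regions of that list alone (grey) and recurring regions with an untreated peak (dark blue).

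High ranks in 1 list did not carry over closely to the next. Of the 415 members with peaks in both treated lists 1 and 2, 161 (38.8%) lay above the median of both lists, 86 (20.7%) at or below it in both, 78 above it in list 1 only and 90 in list 2 only. Spearman's rho of the scores was 0.30 over these 415 regions, 0.47 over the 65 regions of lists 1 and 3, and 0.37 over the 89 regions of lists 2 and 3. The same pairs of lists gave 0.69, 0.46 and 0.46 over the recurring regions that also had an untreated peak. These are descriptions across regions of the same libraries, and regions are not independent replicates. In all, 178 of the 489 members (36.4%) lay above the median of every treated list that held them, 24 (4.91%) above the 90th percentile of every such list, and 102 (20.9%) at or below the median of every such list.

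**Figure D3:**
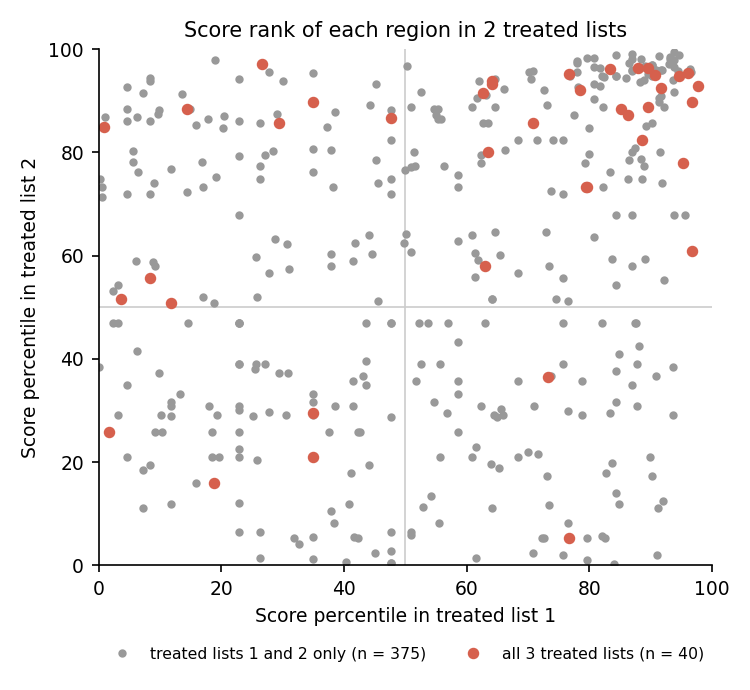
Score percentile in treated list 1 (horizontal axis) against that in treated list 2 (vertical axis), 1 point per region, for the 375 regions of these lists alone (grey) and the 40 in all 3 treated lists (red). Points spread over the whole plot, with 161 of 415 in the upper right, among them 25 of the 40 red points.

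The 40 regions in all 3 treated lists lay on 16 of the 24 chromosomes. Their scores ran from 3.36 to 32.8 (median 9.93) in treated list 1, from 2.90 to 15.7 (median 7.69) in treated list 2 and from 2.18 to 58.0 (median 6.13) in treated list 3. They lay above the list's median in 27, 34 and 18 cases of the 40, with median percentiles of 74.9, 86.9 and 38.1. Their percentiles spread widely in every treated list, from 0.853 to 97.7, from 5.28 to 97.2 and from 0.663 to 99.5. Of the 40, 14 (35.0%) had an untreated peak within 5 kb, while 18 lay more than 50 kb and 7 more than 1 Mb from any untreated peak.

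Ranked by mean percentile, the first of them was at chr13:39067878-39068189, 312 bp, scoring 21.9, 11.0 and 13.7 in the 3 treated lists in turn, with the nearest untreated peak 311 kb away. The second, at chr8:122891426-122891727, scored 28.9, 8.29 and 14.2 and lay 172 kb from an untreated peak. A region at chr1:142897402-142897810, within 1 Mb of the longest peak-free stretch of that chromosome, had nearly even scores of 14.1, 13.2 and 14.8, with an untreated peak 20.5 kb away. All 3 ranked above the 82nd percentile in each treated list.

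A region at chr16:47538518-47538907 had the highest score of any member in treated list 3, 58.0 (percentile 99.5), beside 9.34 and 7.38 in lists 1 and 2, and no untreated peak within 1723 kb. One at chr2:223338205-223338522 had the highest member score of treated list 1, 32.8, with 9.57 and 9.54 in lists 2 and 3. In both, a high score in 1 library was met by middling to high ranks in the others (percentiles 65.5 to 92.9). One at chr15:71466749-71467167 scored 23.7, 6.64 and 12.8, and the nearest untreated peak was 1489 kb away. The remaining 4 of the 10 ranked highest were at chr20:29612135-29612454, chr8:102690369-102690935, chr1:230067890-230068339 and chr12:13681101-13681411. Their mean percentiles ran from 81.2 to 88.6, and their distances to an untreated peak were 40.7, 263, 12.8 and 42.7 kb. The 10 regions were 302 to 567 bp wide, against a median of 422 bp over all members.

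Among the 375 regions of treated lists 1 and 2 alone, the highest by mean percentile was at chrX:150354596-150354963, with scores of 21.9 and 29.6. Next came chr5:120341113-120341594, with 20.4 and 41.7, the latter the highest member score of treated list 2. They were followed by chr12:103204052-103204436 (26.7 and 12.9), chr9:12977637-12977930 (27.1 and 12.0) and chr14:74709016-74709505 (20.4 and 19.6). All 5 lay above the 93rd percentile of both lists, which none of the 10 highest regions found in all 3 treated lists did in every list. The chromosome 12 region had an untreated peak 22.1 kb away, and the other 4 had none within 682 kb.

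Of the 49 regions of treated lists 2 and 3, the first was at chr9:87345314-87345878, with scores of 19.8 and 21.2 and no untreated peak within 1113 kb. The following 4 were at chr4:14482852-14483204 (11.0 and 14.7), chr1:153629285-153629618 (17.6 and 12.9), chr4:152175939-152176253 (7.91 and 17.0) and chr6:140166532-140166825 (9.60 and 13.7). Of the 25 regions of treated lists 1 and 3, the first was at chr21:9825434-9825683, with 15.6 and 16.4 and an untreated peak only 1.28 kb away. It was followed by chr10:12960815-12961036 (16.1 and 13.5), chr4:129733394-129733639 (11.1 and 19.9), chr2:91662678-91662970 (16.4 and 12.2) and chr20:58926777-58927016 (14.9 and 12.0). The second of these pairs of lists lacks treated list 2, and its 5 highest regions were 222 to 293 bp wide, against 294 to 565 bp where list 2 took part.

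Widths differed both between the lists and between the classes of regions. The merged regions had a median width of 422 bp (quartiles 342 and 553), against 293 bp for regions of 1 treated list alone and 509 bp for recurring regions with an untreated peak. Merging adds the parts of peaks that do not overlap, so a region of several lists is wider by construction. The member peaks themselves had median widths of 238, 364 and 228 bp in treated lists 1, 2 and 3, a mean of 276.7 ± 75.8 bp (SD, n = 3), where the whole lists had 234, 323 and 243 bp and narrowest peaks of 193, 291 and 200 bp. Within their list, member peaks lay at the 52.2nd, 62.9th and 37.7th percentile of width, that is above the middle in list 2 and below it in list 3. Regions of that list alone had median peak widths of 223, 313 and 224 bp. Those shared only with untreated lists had 250, 359 and 229 bp. Recurring regions with an untreated peak had 278.5, 448 and 256.5 bp.

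The treated peaks of a member mostly lay on top of one another. The shared part was 204 bp at the median, or 93.5% of the shorter peak, and the centres lay 73.5 bp apart, where the recurring regions with an untreated peak had 237 bp, 100.0% and 49.0 bp. In 414 members (84.7%) the overlap reached 50% of the shorter peak, against 582 of 631 (92.2%). In 26 members (5.32%) the peaks shared under 50 bp. The peaks of the 3 widest members met only in part: chr1:2596988-2598682 (1695 bp, 9.64% of the shorter peak shared), chr1:2688427-2689926 (1500 bp, 22.0%) and chr17:61529478-61530683 (1206 bp, 22.1%).

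Many members lay close to untreated peaks. An untreated peak was within 5 kb of 144 of the 489 regions (29.4%, Wilson interval 25.6 to 33.6%), within 1 kb of 62 (12.7%) and within 50 kb of 289 (59.1%), and the median distance was 27.8 kb. Regions of treated list 1 alone had an untreated peak within 5 kb in 16.7% of cases, those of treated list 2 alone in 8.30% and those of treated list 3 alone in 12.3%, with median distances of 48.3, 139.2 and 100.9 kb. At both 5 and 50 kb, recurring treated-only regions thus had an untreated neighbour more often than the regions of any 1 treated list, where the shares at 50 kb were 50.6%, 32.1% and 43.2%. This difference was not tested. Taken singly, untreated list 1 had a peak within 5 kb of 100 members and untreated list 2 of 92. Where a peak of an untreated list within 5 kb also ended membership, 345 regions remained, and within 50 kb 200. The treated lists stayed behind 2 of the other 9 choices at both distances, with 661 and 509 against 345 and with 448 and 313 against 200.

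**Figure D4:**
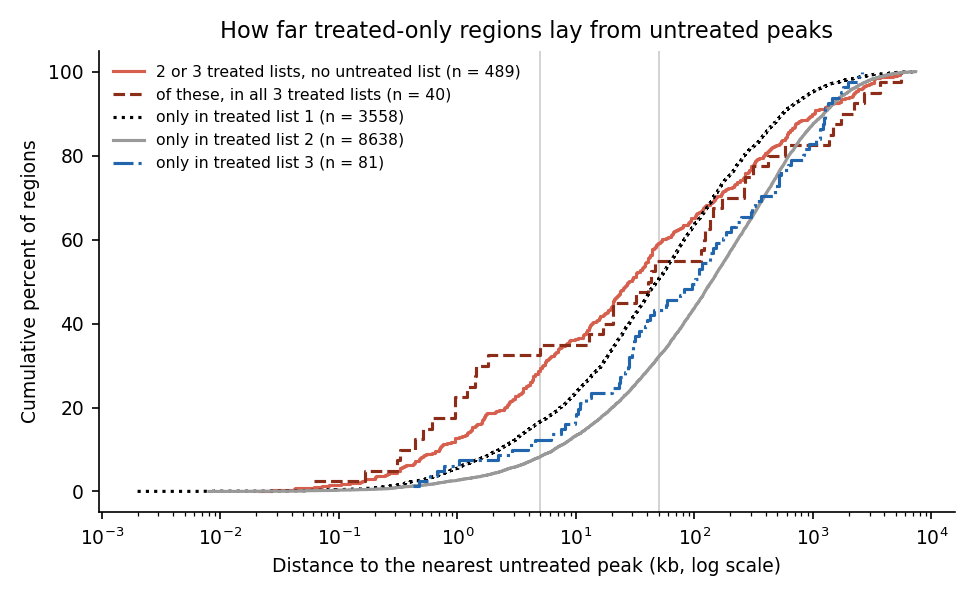
Cumulative percent of regions (vertical axis) by distance to the nearest untreated peak in kb (horizontal axis, log scale), for the 489 members, the 40 of them in all 3 treated lists, and regions of a single treated list. Grey lines mark 5 and 50 kb, reached by 29.4% and 59.1% of the members.

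At the edge of the rule, the members nearest to an untreated peak were at chr14:68830784-68831325 (21 bp away, scores of 6.07 and 5.70 in treated lists 1 and 2), chr12:127650832-127651064 (27 bp, 10.1 and 10.0 in lists 1 and 3) and chr10:81143667-81144103 (42 bp, 9.87 and 4.38 in lists 1 and 2). Just outside it were regions whose untreated peak overlapped a treated one by 10 bp at chr14:19499685-19500376 (5.79 in untreated list 1, 13.3 and 8.28 in treated lists 1 and 2), by 24 bp at chr19:36780422-36781255 (4.01 in untreated list 2, 8.65 and 3.22 in treated lists 1 and 2) and by 26 bp at chrX:114982018-114983313 (3.99 in untreated list 2, 2.41 and 5.37 in treated lists 2 and 3). Only 4 members had an untreated peak within 50 bp, and 5 of the 631 recurring regions with an untreated peak shared under 50 bp with it, so the exact overlap asked for decided few of them.

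Chromosome 10 held the most members. It had 95 of the 489 (19.4%), against 9.83% of all regions and 9.35% of the recurring regions with an untreated peak. Chromosome 1 followed with 53 (10.8%, against 11.9% of all regions), then chromosome 8 with 41 (8.38%, against 8.22%) and chromosome 14 with 37 (7.57%, against 5.70%). All 24 chromosomes held at least 1 member, and 10 held a higher share of the members than of all regions. The share of chromosome 10 among peaks was 16.3%, 7.02% and 9.28% in treated lists 1, 2 and 3, and 12.9% and 9.61% in the untreated lists. Of the 95 regions, 81 were of treated lists 1 and 2 alone, a pair that made up 76.7% of all members. Chromosome 10 held 21.6% of the members of this pair alone and 12.5% of those in all 3 treated lists. It held 12.0% of those in lists 1 and 3 and 12.2% of those in lists 2 and 3. Without treated list 1 the share of chromosome 10 was 12.2% (11 of 90 members, against 8.05% of all regions), and without treated list 2 it was 11.9% (8 of 67, below the 14.2% of all regions). With the 528 highest-scoring peaks of every list it was 10.5% (11 of 105, against 8.08%).

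**Figure D5:**
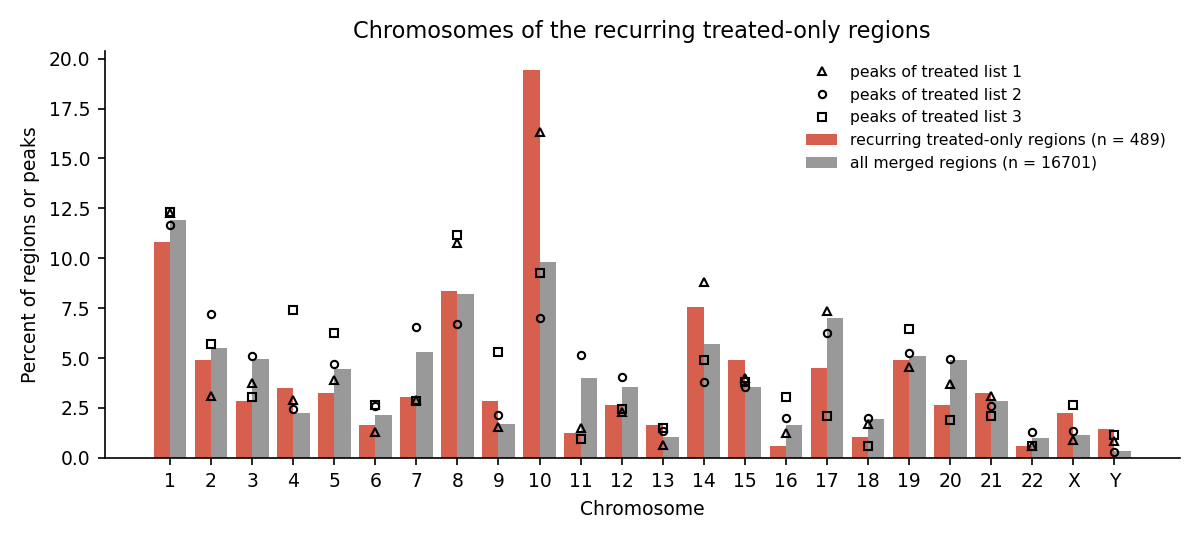
Percent of the 489 members (red bars) and of all 16701 merged regions (grey bars) on each chromosome, with the percent of peaks of each treated list as open symbols. Chromosome 10 stands at 19.4% of members against 9.83% of all regions, with treated list 1 at 16.3% and treated list 2 at 7.02%.

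Most of the members on chromosome 10 lay between 75 and 85 Mb. That stretch held 62 of the 95, 12.7% of all members against 4.45% of all regions, and 41 of the 62 (66.1%) had an untreated peak within 5 kb. Outside it, chromosome 10 held 7.73% of the remaining members and 5.62% of the remaining regions. Without the stretch, 24.1% of members had an untreated peak within 5 kb. The largest group of neighbouring members, chained at 50 kb or less, was in this stretch at 80672864 to 81179202 and had 27 members in 506 kb, 24 of them of treated lists 1 and 2 alone. The same window held 62 and 30 peaks of untreated lists 1 and 2 and 140, 88 and 5 peaks of treated lists 1, 2 and 3, merged into 234 regions. Its members lay a median of 1.61 kb from an untreated peak. The peaks in the window were 2.68% and 1.47% of untreated lists 1 and 2. They were 2.84%, 0.875% and 0.947% of treated lists 1, 2 and 3. The window thus held peaks of every list, with and without the drug, and 27 of its 234 regions met the rule. A second group, at 75549207 to 75648896, had 8 members, all of treated lists 1 and 2, with 3 and 4 untreated peaks and 20, 13 and 0 treated peaks.

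Over the whole set, chromosome 10 included, another member lay within 50 kb of 182 of the 489 (37.2%), and these fell into 55 groups of 2 or more, while 307 stood alone. The share with a neighbour of the same class was not computed for other classes of regions. It therefore cannot be called particular to the members. Groups of 5 or more numbered 10 and held 80 members. At chr19:36764940-36795183, 30.2 kb held 8 members, beside 5 regions found in all 5 lists, with 8 and 9 untreated and 19, 17 and 12 treated peaks. At chr1:2595567-2621817, 26.3 kb held 6 members, of which 3 were in all 3 treated lists, with 11 and 4 untreated and 22, 18 and 10 treated peaks. At chrX:114983569-115005374, 21.8 kb held 6 members of every combination of treated lists, with 4 and 1 untreated and 9, 9 and 4 treated peaks. The spans on chromosomes 19, 1 and X held 25, 18 and 14 merged regions in all. Each of these 5 largest groups held peaks of both untreated lists within its span. A region found in all 5 lists lay within 50 kb of 46 members (9.41%), against 1.56% of the regions in 1 treated list alone.

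Some members bordered long stretches in which no list had a peak. On several chromosomes, such as 1 (121485410 to 142549714) and 9 (47172740 to 66454670), the longest such stretch lies where centromeric and other repeated sequence is known to be, but on others, such as chromosome X (109543590 to 114961348), it need not. Within 1 Mb of these stretches lay 27 members (5.52%, Wilson interval 3.82 to 7.91%), against 1.99% of all regions, 5.55% of the recurring regions with an untreated peak and 1.57% of the regions in 1 treated list alone. The members there were most numerous on chromosomes X (6), 20 (5) and 9 (4). The 6 on chromosome X were the group at chrX:114983569-115005374 named above. The 4 on chromosome 9 were also 1 group, within 14.2 kb at 66486707 to 66500917. The Wilson interval counts such neighbours as separate regions. Repeat content was not tested, because no hg19 sequence or annotation was used.

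Chromosome Y held 7 members, 12.3% of its 57 regions, all of treated lists 1 and 2. Their scores were 10.0 to 17.3 in treated list 1 and 2.90 to 15.3 in treated list 2. The chromosome held 1.43% of the members, 0.341% of all regions and 2.06% of the recurring regions with an untreated peak (13). Untreated lists 1 and 2 had 23 and 11 peaks on it, so a raised share there was not particular to the members. PC3 is known as a line without a normal Y chromosome, and the origin of the signal placed there was not tested. Leaving Y out gave 482 members.

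When the descriptions were combined, 140 of the 489 members (28.6%) lay more than 5 kb from any untreated peak, had peaks that shared 50% or more of the shorter one, and ranked above the median of every treated list that held them. Of the 40 regions in all 3 treated lists, 14 (35.0%) met these conditions. This combination was chosen after the values had been seen. No other choice of 3 lists was put through it, so the 140 cannot be set beside sets that do not follow treatment.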

How the data were processed

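p300 chromatin immunoprecipitation libraries of PC3 cells (2 untreated, 3 treated) were used as the authors' peak lists, 1 per library, so peaks were called per sample. Peaks were called with MACS2 on hg19, per the submitters' processing notes. Which aligner, threshold and input library served each sample is not given in the sources used here. A score per peak, of unnamed scale, stands in the deposited lists and was used for ranks within a list and for filters. The filters by the pooled median and by one common minimum set the same cut for all lists, although the scale is unnamed. The 4 input libraries were not analysed here. Coordinates are counted from 1.

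Peaks were merged at 1 bp of overlap. Where a list had several peaks in a region, its highest-scoring one was used. Percentiles are mid-ranks within a list, and distances run from edge to edge. Members and comparisons were chosen with earlier results of these data known. Named were the regions highest by mean percentile (10 in all 3 treated lists, 5 per pair of lists), the highest-scoring member peak of each treated list, the 3 widest, the 3 just inside and outside the rule, and the 5 largest groups. Genes and sequences were not analysed here for want of an hg19 reference. The merging and distance code was checked on simulated data. Python 3.11.15, numpy 2.4.6, pandas 2.3.3, scipy 1.17.1 and matplotlib 3.10.9 were used.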

Additional observations from a re-analysis of the deposited data

How the results depend on the processing

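Read depth is unknown and limits every absence of a peak. Of the alternative values, 81 stayed within the spread of the lists, the Wilson interval or 1.5-fold for counts, and 41 moved further; the cause was not tested beyond fewer peaks or lists. Scores at or above the pooled median of 5.90 left 240 members, 24 of them in all 3 treated lists, with 23.8% within 5 kb of an untreated peak, 22.9% within 50 kb of another member and 15.4% on chromosome 10. This cut fell unevenly on the lists, as the median scores of treated lists 1, 2 and 3 were 7.23, 4.89 and 7.42. Equal lists of 528 peaks left 105 members and 16 in all 3, a median percentile of 43.3 in place of 59.2 over all member peaks, shares of 35.2%, 26.7% and 10.5%, and 1 other choice of 3 lists with more regions in place of 2. Merging within 500 bp gave 23.6% near an untreated peak, but by construction it leaves no member within 500 bp of one. Without regions near those of all 5 lists the shares were 23.7% near an untreated peak, 32.1% near another member and 3.61% near a peak-free stretch. Other distances gave 12.7% (1 kb) and 59.1% (50 kb) near an untreated peak, 18.0% (10 kb) and 45.8% (200 kb) near another member, and 3.07% (200 kb) and 11.7% (5 Mb) near a peak-free stretch. Leaving out 1 list gave 67 (without treated list 2) to 745 members (without untreated list 1), 59 to 415 in all remaining treated lists, widths of 299 to 433 bp, and shares of 23.2% to 38.8% near an untreated peak, 10.0% to 43.8% near another member and 11.9% to 20.7% on chromosome 10. Without treated list 1, 90 members remained. Part of these changes is built in. A wider distance takes in the regions of a narrower one, and without an untreated list there are fewer untreated peaks to lie near. Without a treated list, a peak in all remaining treated lists asks for 2 lists in place of 3. Such values are counted among the 41 that moved and do not measure robustness. Chosen after seeing the data, an untreated peak within 50 kb as a further bar left 200 members, leaving out chromosome 10 from 75 to 85 Mb gave 24.1% within 5 kb of an untreated peak, and one common score minimum of 3.04 left 459. The labels do not say that replicate numbers pair the libraries. With the replicate block, in which the lists numbered 1 and 2 stand as pairs, 415 regions had a treated and no untreated peak in both pairs. By its definition this is the same set as without treated list 3, so it does not examine the pairing. Its values are counted again among the 81 that stayed.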
